A study of Mus musculus with 20 samples.

Results

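The let-7 family is a set of microRNAs that carry the same seed, the bases 2 to 8 that direct an miRNA to its target mRNAs. Its members here are 9 mature 5p arms, chosen by name and not by their values, out of 1886 mature entries in each count table. They are mmu-let-7a-5p, mmu-let-7b-5p, mmu-let-7c-5p, mmu-let-7d-5p, mmu-let-7e-5p, mmu-let-7f-5p, mmu-let-7g-5p, mmu-let-7i-5p and mmu-miR-98-5p, called let-7a to let-7i and miR-98 from here on. All 9 had reads in every library and passed the filter on low counts, which kept 542 miRNAs. The samples were primary neuron cultures from the ventral mesencephalon, the part of the embryonic midbrain that gives rise to dopaminergic neurons, of C57Bl6/J mouse embryos of day 12.5. They were grown without serum and collected after 5 days or 1 day in vitro (DIV5 and DIV1). The 4 groups were DIV5 with 10 ng/ml of GDNF, DIV5 without it, DIV1 with 10 ng/ml of GDNF and DIV1 without it, with 5 libraries each. GDNF, the glial cell line-derived neurotrophic factor, is a protein known to keep dopaminergic neurons alive. The labels do not say whether the 5 replicates of a group came from separate embryos, litters or cultures, so p-values measure only the spread between these libraries. The cultures hold all cells that were dissected and survived, and the labels describe no sort for neurons.

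Let-7 miRNAs repress their target mRNAs through the seed, and known targets include Lin28a, Hmga2 and cell cycle genes. LIN28 proteins in turn bind let-7 precursors and block their maturation, so mature let-7 is scarce in stem cells and accumulates as cells differentiate. In the developing brain the family is known for promoting the exit of neural progenitors from the cell cycle, and let-7 is abundant in neurons.

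The mature sequences show how little separates the members, which bears on how their reads can be told apart. They are printed 5′ to 3′ as RefSeq gives them (build GRCm38.p6), with the seed in capitals and the most abundant member first.
let-7c-5p: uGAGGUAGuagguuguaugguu
let-7f-5p: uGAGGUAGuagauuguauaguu
let-7i-5p: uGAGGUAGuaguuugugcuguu
let-7a-5p: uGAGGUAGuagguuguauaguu
let-7e-5p: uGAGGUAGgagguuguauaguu
let-7g-5p: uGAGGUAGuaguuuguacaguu
let-7b-5p: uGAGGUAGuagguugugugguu
let-7d-5p: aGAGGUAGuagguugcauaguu
miR-98-5p: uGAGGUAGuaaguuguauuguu
All 9 are 22 bases long and share 1 seed. Counted from 1 at the 5′ end, with the base of let-7a first, let-7c differs from let-7a by A19G, let-7e by U9G and let-7f by G12A. Let-7b differs from let-7a by A17G and A19G, let-7d by U1A and U16C, let-7g by G12U and U18C, and miR-98 by G11A and A19U. Let-7i is the farthest from let-7a, with G12U, A17G, U18C and A19U. Of the 36 pairs of members, 4 differ at 1 base.

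The 9 mature sequences come from 12 hairpins on 7 chromosomes (GRCm38.p6, GENCODE vM21 annotation). Let-7d, let-7f-1 and let-7a-1 lie within 2261 bases on the minus strand of chromosome 13, in an exon of the lincRNA 6720427I07Rik. Let-7c-2 and let-7b lie within 801 bases on the plus strand of chromosome 15, in an exon of the non-coding transcript Lncppara. Let-7c-1 lies beside miR-99a on chromosome 16, in an intron of the non-coding Mir99ahg, and let-7e lies beside miR-125a on chromosome 17, in an intron of Spaca6. Let-7a-2 lies between miR-100 and miR-125b-1 on chromosome 9, in introns of the non-coding 3110039I08Rik and Gm49317. Let-7g lies alone in an intron of the protein-coding Wdr82 on the plus strand (chr9:106178840-106178927). Let-7f-2 and miR-98 lie within 976 bases in an intron of Huwe1 on the X chromosome, and let-7i lies in an exon of the transcribed pseudogene D630033A02Rik on chromosome 10. Let-7a, let-7c and let-7f are each made by a pair of hairpins, and a count for the mature 5p arm cannot be divided between them.

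Total counts were 1781030 to 3983722 at DIV5 with GDNF, 1061619 to 4324505 at DIV5 without it, 420118 to 1761023 at DIV1 with GDNF and 686793 to 1557885 at DIV1 without it, so the DIV5 libraries were mostly the deeper ones. The member with the fewest reads in any library was let-7b with 136 reads, where counting alone gives a relative error of 8.57%. Across the 542 miRNAs tested, DIV5 differed from DIV1 for 60.7% without GDNF and for 52.4% with GDNF (edgeR, adjusted p below 0.05), whereas GDNF against control gave a call for 0.185% at DIV5 and for 0% at DIV1. A single miRNA, miR-6239, took 0.894% to 6.28% of the counts at DIV5 and 3.56% to 13.4% at DIV1. DIV5 control libraries 1 and 5 stood apart, with 43 of the tested miRNAs at least 2-fold higher in both than the mean of the other 3 libraries of that group. Among the members this touched let-7b, which was 1.85-fold higher in those libraries, whereas the others were at 0.852 to 0.963 of the level in the remaining libraries.

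Let-7c was the most abundant member, and the order of most members was the same in every library. As TMM-scaled CPM, which are counts divided by the scaled library total, the mean over all 20 libraries was 21218 for let-7c, 11180 for let-7f, 7522 for let-7i, 4906 for let-7a, 3307 for let-7e, 3101 for let-7g, 893 for let-7b, 635 for let-7d and 431 for miR-98. Since all members are 22 bases long, these levels need no correction for length, although small RNA libraries ligate different sequences with different efficiency and the levels of different miRNAs are not molar amounts. Let-7c exceeded let-7f, let-7f exceeded let-7i, let-7i exceeded let-7a and let-7a exceeded let-7e in 20 of 20 libraries. Let-7g also exceeded let-7b, and let-7d exceeded miR-98, in 20 of 20. The places of let-7e and let-7g were exchanged between days, with let-7e above let-7g in 1 of 5 DIV5 GDNF libraries, 0 of 5 DIV5 control libraries, 5 of 5 DIV1 GDNF libraries and 5 of 5 DIV1 control libraries. Let-7b exceeded let-7d in all DIV5 libraries but in 2 of 5 libraries of each DIV1 group. Among all 1886 entries, let-7c ranked 12 by its mean level and miR-98 ranked 128.

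**Figure D1:**
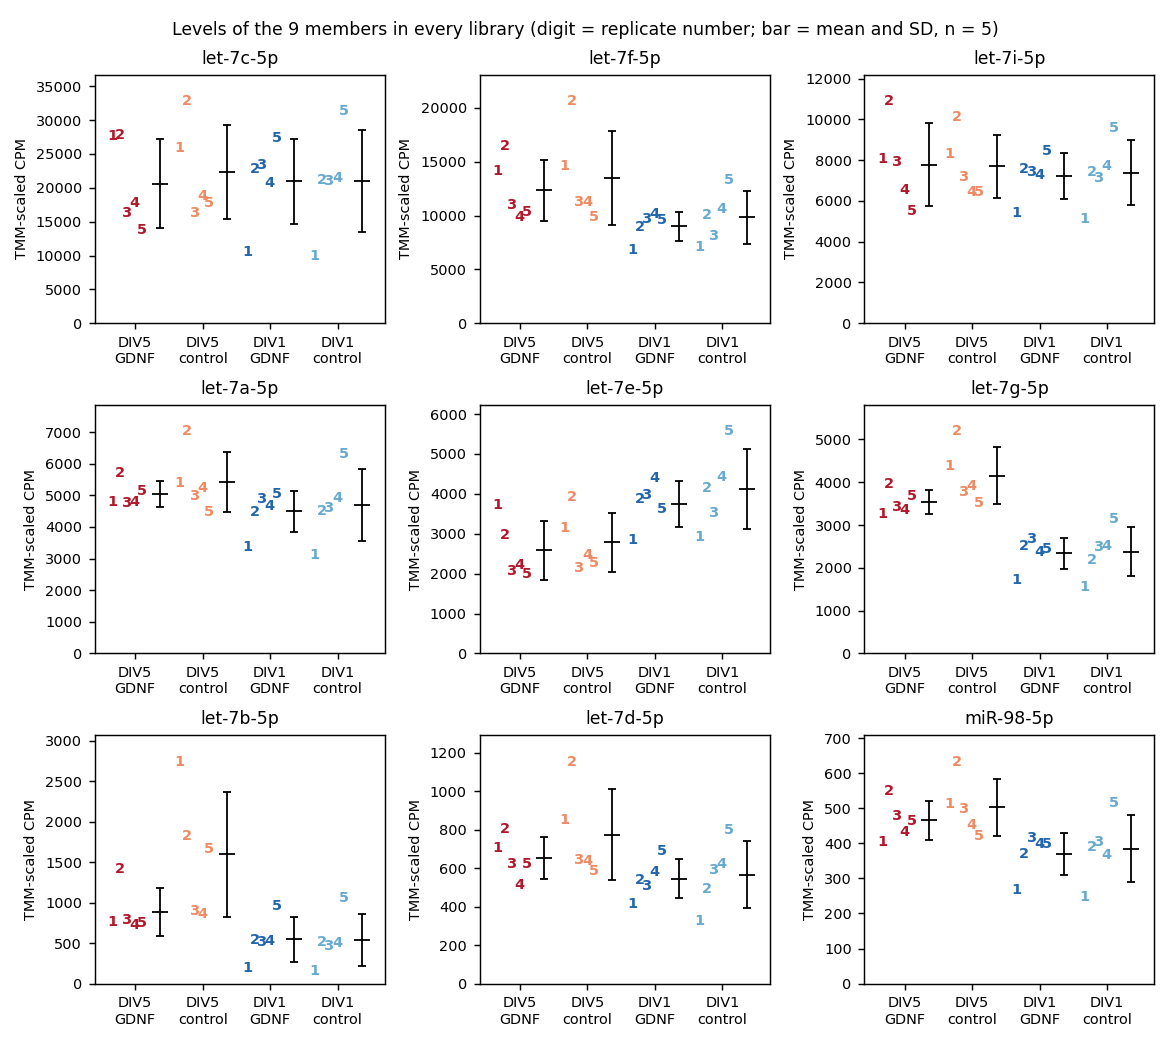
Level of each member in TMM-scaled CPM in every library, with the replicate number as the plotted symbol and the group mean and SD beside it (n = 5). The DIV5 libraries of let-7g lie above the DIV1 libraries, 3265 to 5187 against 1553 to 3136 CPM, whereas let-7c, let-7i and let-7a overlap between days.

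The summed level of the family overlapped between the 4 groups. At DIV5 it was 63431, 70430, 47211, 46203 and 42319 CPM in GDNF libraries 1 to 5, against 65831, 83264, 47657, 50087 and 46899 CPM in control libraries. At DIV1 it was 31561, 51453, 53449, 51063 and 58570 CPM in GDNF libraries, against 30458, 50923, 48313, 53121 and 71593 CPM in control libraries. The means were 53919 ± 12270 at DIV5 with GDNF, 58748 ± 15729 at DIV5 without it, 49219 ± 10314 at DIV1 with GDNF and 50881 ± 14643 CPM at DIV1 without it (SD, n = 5 each). On the log2 scale the ratio of group means was 0.21 for DIV5 against DIV1 without GDNF and 0.13 with GDNF, and it was -0.12 for GDNF against control at DIV5 and -0.05 at DIV1. The SD of the log2 summed level within groups was 0.37, larger than each of these TMM-scaled ratios. With other scaling, or with miR-6239 or DIV5 control libraries 1 and 5 left out, DIV5 against DIV1 gave 0.14 to 0.44 without GDNF. With GDNF, other scaling or leaving out miR-6239 gave 0.16 to 0.28. At DIV5, where the replicate numbers were taken to pair the GDNF and control libraries, the log2 ratio within pairs was -0.11 ± 0.0883 (SD, n = 5 pairs) and below 0 in 5 of 5 pairs. The DIV5 difference with GDNF was thus small beside the spread between single libraries. The pairing was taken from these same data, so the ratios within pairs are a description and no p is given for them. Leaving out 1 library in turn, the log2 ratio of group means at DIV5 ranged from -0.24 to 0.042. As a share of raw counts the 9 members made up 5.56% ± 1.04 at DIV5 with GDNF, 6.40% ± 1.26 at DIV5 without it, 4.59% ± 0.836 at DIV1 with GDNF and 4.73% ± 1.37 at DIV1 without it. In such bulk libraries, fewer cells of a type and less RNA per cell cannot be told apart.

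**Figure D2:**
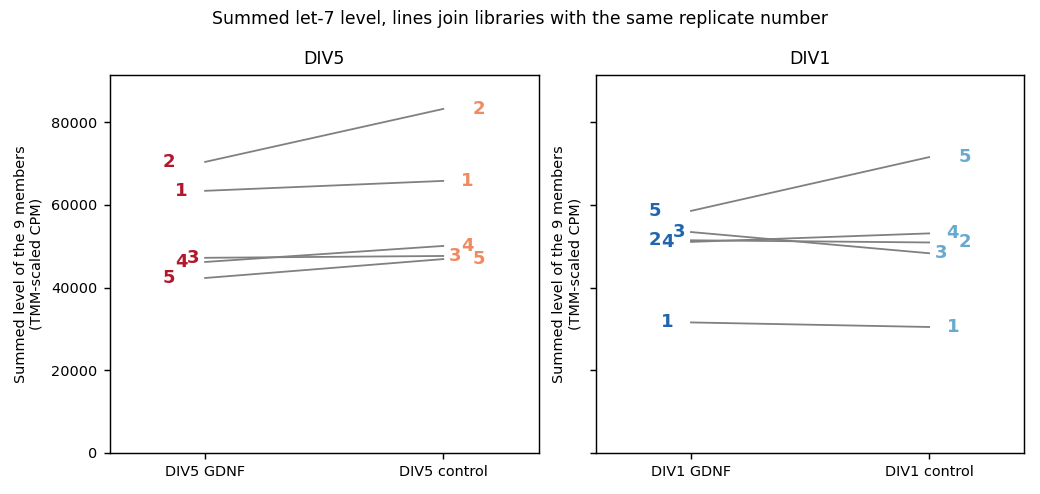
Summed level of the 9 members in TMM-scaled CPM at DIV5 and DIV1, where lines join the GDNF and control libraries that carry the same replicate number. At DIV5 the lines of libraries 1 and 2 lie at 63431 to 83264 CPM and those of libraries 3 to 5 at 42319 to 50087 CPM, and at DIV1 library 1 lies lowest in both groups.

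Members were mostly high or low together in single libraries of a group. At DIV1, library 1 held the lowest level of 9 of 9 members in both the GDNF and the control group. Library 5 held the highest level of 5 of 9 members in the DIV1 GDNF group and of 9 of 9 in the DIV1 control group. At DIV5, libraries 1 and 2 were the top pair for 9 of 9 members in the control group, and library 2 was highest for 8 of 9 members in each group. DIV5 GDNF library 1 was among the top 2 of its group for 5 of 9 members and the lowest for 2 of 9. Marker miRNAs of several cell types also differed between these libraries, and not in the same way at both days. At DIV1, the summed level of 9 miRNAs of neural progenitors and proliferating cells was highest in library 1, with 138410 CPM with GDNF and 151313 CPM without it, and lowest in library 5, with 110814 CPM with GDNF and 107665 CPM without it. The summed level of 9 miRNAs of neurons was lowest in library 1, with 68692 CPM with GDNF and 58462 CPM without it. Most of that sum is miR-9-5p, which is also abundant in neural progenitors and made up 87.2% to 89.3% of it at DIV1. The 7 other names on the list without either miR-9 arm summed to 7485 CPM with GDNF and 6969 CPM without it in library 1, again the lowest, and to 10456 and 10766 CPM in library 5, the highest. MiR-124-3p alone varied less, at 2235 to 2727 CPM with GDNF and 1972 to 2647 CPM without it. Markers of mesenchyme were highest in DIV1 library 1 of both groups, with 4278 CPM with GDNF and 4921 CPM without it, and so was endothelium, with 83.3 CPM and 148 CPM. At DIV5, libraries 1 and 2 held the high summed let-7 levels, and mesenchyme was high there too, unlike at DIV1. With GDNF it summed to 3095 and 1501 CPM in these and to 294 to 762 CPM in libraries 3 to 5. Without GDNF it summed to 1458 and 1268 CPM in libraries 1 and 2 and to 596 to 716 CPM in libraries 3 to 5. The progenitor sum in DIV5 libraries 1 and 2 was 38349 and 41882 CPM with GDNF. Without GDNF it was 28196 CPM, the lowest of its group, and 41641 CPM, the highest. Neurons without the miR-9 arms summed there to 17306, the lowest of its group, and 20782 CPM with GDNF, and to 22320 and 24828 CPM without it. DIV5 libraries 1 and 2 were also the shallower ones, with 1061619 to 1907937 counts against 2969524 to 4324505, and had more reads assigned to no feature, 17.7% to 19.5% against 9.51% to 13.3%. The part of these cells and of these library properties in the let-7 level of a library was not tested. Within groups, the SD of the log2 level was 0.77 for let-7b, 0.51 for let-7c and 0.25 to 0.36 for the others, against a median of 0.34 over the 439 miRNAs with a mean of at least 10 CPM.

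Comparing days, let-7g was the member with the clearest difference, higher at DIV5 with and without GDNF. Let-7b and miR-98 were also higher at DIV5 in the cultures without GDNF, and let-7e was lower at DIV5 with and without GDNF. Without GDNF, 3 of 9 members rose, where 31.4% of all tested miRNAs did, and 1 of 9 fell, where 29.3% of all did. With GDNF, 1 of 9 rose against 25.1% of all, and 1 of 9 fell against 27.3% of all. The median log2 fold change of the members was 0.39 without GDNF and 0.26 with GDNF, beside 0.10 and 0.00 over all tested miRNAs. The counts of members called are thus near or below what these shares of all miRNAs give. The comparisons with and without GDNF have no library in common, and the difference between them was called for 0 of 9 members.

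Let-7g comes from a single hairpin, inside Wdr82. At DIV5 it had 3265, 3958, 3429, 3358 and 3678 CPM in GDNF libraries 1 to 5, against 1718, 2501, 2667, 2369 and 2433 CPM at DIV1 with GDNF. Without GDNF it had 4383, 5187, 3779, 3910 and 3511 CPM at DIV5, against 1553, 2187, 2488, 2499 and 3136 CPM at DIV1. Every DIV5 library lay above every DIV1 library in both comparisons, a separation that 18.6% of all tested miRNAs showed in this direction with GDNF and 20.1% without it. The means were 3538 ± 281 against 2338 ± 364 CPM with GDNF and 4154 ± 658 against 2373 ± 574 CPM without GDNF (SD, n = 5 each). The log2 fold change was 0.60 (SE 0.15, edgeR adjusted p = 0.00273) with GDNF and 0.81 (SE 0.15, edgeR adjusted p = 0.000145) without GDNF. Let-7g kept its call in 24 of 24 alternative analyses of each comparison.

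Let-7e, whose hairpin lies beside that of miR-125a, went the other way. At DIV5 it had 3709, 2963, 2057, 2215 and 1995 CPM in GDNF libraries, against 2843, 3861, 3971, 4404 and 3614 CPM at DIV1 with GDNF. Without GDNF it had 3137, 3919, 2155, 2461 and 2258 CPM at DIV5, against 2916, 4155, 3524, 4414 and 5566 CPM at DIV1. No member was separated between days in this direction, where 18.3% of all tested miRNAs were with GDNF and 19.2% without it. The days overlapped because DIV5 libraries 1 and 2 were high and DIV1 library 1 was low, while DIV5 libraries 3 to 5 lay below all DIV1 libraries. The log2 fold change was -0.53 (SE 0.20, edgeR adjusted p = 0.0323) with GDNF and -0.56 (SE 0.20, edgeR adjusted p = 0.0205) without GDNF. With DIV5 libraries 1 and 2 alone the value was -0.17 in both comparisons and let-7e was not called, whereas with libraries 3 to 5 alone it was -0.80 with GDNF and -0.85 without GDNF and was called. The call also ended on leaving out any of DIV1 GDNF libraries 2 to 5 or DIV5 GDNF libraries 3 to 5, and, without GDNF, any of DIV1 control libraries 4 and 5 or DIV5 control libraries 3 and 4. Scaled by library totals alone, let-7e was -0.39 with GDNF and -0.33 without GDNF and was called in neither comparison. With no filter on low counts it was -0.28 with GDNF and -0.37 without GDNF and again not called, and the call with GDNF also ended with upper-quartile scaling and the call without GDNF on leaving out DIV5 control libraries 1 and 5 or DIV1 libraries 1 and 5.

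The balance between let-7g and let-7e can be read within a library, with no scaling between libraries. The pair was chosen after its values were seen, as the members called in opposite directions with and without GDNF, so its ratio is a description with no test. The ratio of let-7g to let-7e was 1.45 ± 0.369 at DIV5 with GDNF, 1.52 ± 0.169 at DIV5 without it, 0.627 ± 0.057 at DIV1 with GDNF and 0.579 ± 0.0733 at DIV1 without it (SD, n = 5 each). It ranged from 0.880 to 1.84 over the DIV5 libraries and from 0.526 to 0.706 over the DIV1 libraries, with no overlap. Of the 36 ratios between members, 5 had no overlap between the days with GDNF and 19 without GDNF, and 5 had none over all libraries. Of the summed level, let-7e took 4.21% to 5.85% at DIV5 and 6.17% to 9.57% at DIV1. Let-7g took 5.15% to 8.69% at DIV5 and 4.15% to 5.44% at DIV1, which overlap because DIV5 GDNF library 1 was low.

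**Figure D3:**
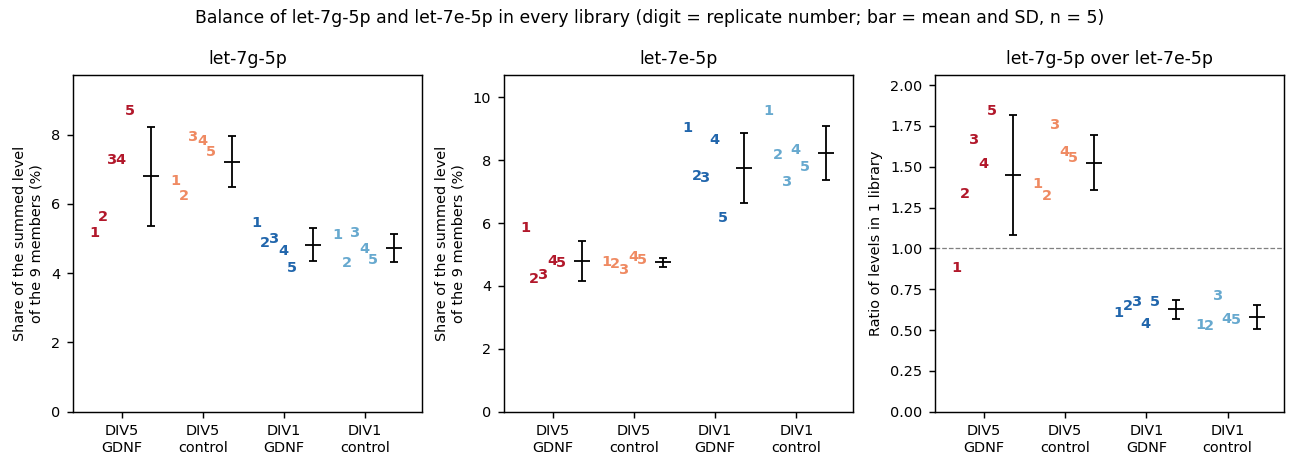
Share of let-7g and of let-7e in the summed level of the 9 members (%), and the ratio of let-7g to let-7e, in every library, with the replicate number as the symbol and the group mean and SD beside it (n = 5). The ratio lies between 0.880 and 1.84 in the DIV5 libraries and between 0.526 and 0.706 in the DIV1 libraries.

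Let-7b, which is known in neural stem cells for repressing Nr2e1 (TLX) and cyclin D1, varied most. At DIV5 without GDNF it had 2742, 1822, 902, 855 and 1666 CPM, against 160, 509, 471, 499 and 1062 CPM at DIV1. With GDNF it had 756, 1417, 789, 724 and 753 CPM at DIV5, against 189, 535, 516, 531 and 962 CPM at DIV1. DIV1 library 5 reached into the range of the DIV5 libraries in both comparisons, and DIV1 library 1 lay far below the other DIV1 libraries. The log2 fold change was 1.57 (SE 0.44, edgeR adjusted p = 0.00527) without GDNF and 0.71 (SE 0.44, edgeR adjusted p = 0.184) with GDNF. Without DIV5 control libraries 1 and 5, which stood apart, the value in the cultures without GDNF was 1.16 with an adjusted p of 0.059. With DIV5 libraries 3 to 5 alone it was 1.07 with an adjusted p of 0.0735.

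Let-7d, let-7a-1 and let-7f-1 share a transcript on chromosome 13, and let-7f-2 shares one with miR-98 on the X chromosome. MiR-98 had 404 to 548 CPM at DIV5 with GDNF against 268 to 415 CPM at DIV1, and 421 to 633 CPM at DIV5 without GDNF against 247 to 514 CPM at DIV1. Its log2 fold change was 0.33 (SE 0.17, edgeR adjusted p = 0.0978) with GDNF and 0.39 (SE 0.17, edgeR adjusted p = 0.0481) without GDNF. The call without GDNF ended on leaving out any of DIV1 control libraries 1 to 4 or DIV5 control libraries 1 to 3, with upper-quartile scaling, with only the groups compared in the fit and with DIV5 libraries 3 to 5 alone. Let-7f had 9849 to 16430 CPM at DIV5 with GDNF against 6763 to 10139 CPM at DIV1, and 9857 to 20632 CPM at DIV5 without GDNF against 7056 to 13318 CPM at DIV1. Its log2 fold change was 0.45 (edgeR adjusted p = 0.0629) with GDNF and 0.46 (edgeR adjusted p = 0.0536) without GDNF, just short of a call, and 13 of 24 alternatives of each comparison called it. Let-7d had 515 to 802 CPM at DIV5 with GDNF against 415 to 689 CPM at DIV1, and 587 to 1155 CPM at DIV5 without GDNF against 326 to 799 CPM at DIV1, with log2 fold changes of 0.26 with GDNF and 0.45 without GDNF that were not called.

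Let-7c, let-7i and let-7a, which with let-7f make up most of the family, were not called between days. Let-7c had 27590, 27720, 16242, 17787 and 13822 CPM at DIV5 with GDNF, against 10566, 22711, 23344, 20698 and 27394 CPM at DIV1. Without GDNF it had 25883, 32785, 16281, 18846 and 17694 CPM at DIV5, against 9968, 21174, 21019, 21509 and 31323 CPM at DIV1. The DIV1 control group alone spanned most of the range of the series, and the log2 fold change was -0.02 (SE 0.29) with GDNF and 0.09 (SE 0.29) without GDNF. Let-7i had log2 fold changes of 0.11 (SE 0.18) with GDNF and 0.06 (SE 0.18) without GDNF, and let-7a of 0.16 (SE 0.15) with GDNF and 0.21 (SE 0.15) without GDNF.

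**Figure D4:**
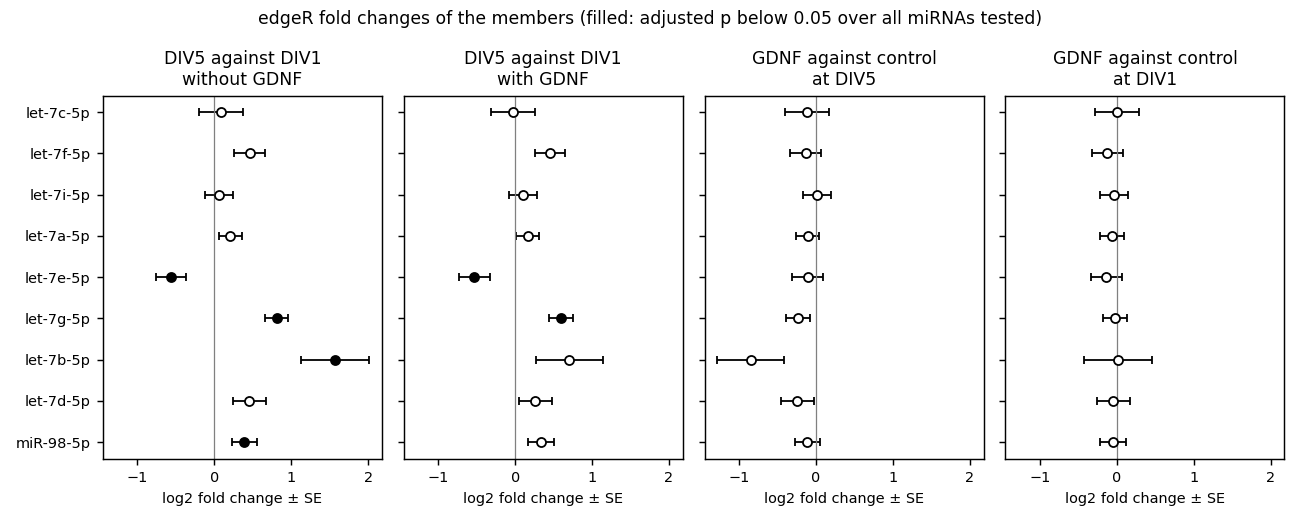
Log2 fold change of each member with its SE from edgeR in the 4 comparisons, where filled points have an adjusted p below 0.05 over all 542 miRNAs tested. Let-7g and let-7e are filled with and without GDNF between days, let-7b and miR-98 are filled without GDNF and open with GDNF, and no member is filled for GDNF against control.

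The markers of other cells also differed between days. All 9 of 9 miRNAs of neural progenitors and proliferating cells fell at DIV5 with and without GDNF, and their summed level was 28196 to 41882 CPM in the DIV5 libraries against 107665 to 151313 CPM in the DIV1 libraries. Of the 7 tested miRNAs of neurons, 4 rose at DIV5 with GDNF and 6 without it, and the summed level of all 9 was 69006 to 112425 CPM at DIV5 against 58462 to 96921 CPM at DIV1. Without the miR-9 arms it was 17306 to 24828 CPM at DIV5 against 6969 to 10766 CPM at DIV1. MiR-124-3p, a neuron-specific miRNA, rose by 1.31 with GDNF and 1.36 without it on the log2 scale, and miR-138-5p is listed at 0 in all libraries. Of the 4 miRNAs of astrocytes and glia, 2 rose with GDNF and 3 without it, and their summed level was 3786 to 5495 CPM at DIV5 against 3258 to 4176 CPM at DIV1. The tested markers of endothelium (miR-126a-3p), myeloid cells (miR-142a-5p) and the oligodendrocyte lineage (miR-219a-2-3p) fell in both comparisons, and 2 of 5 miRNAs of mesenchyme fell in both. Of 3 tested erythroid entries 1 rose and 2 fell in both, and 0 of 3 epithelial and ependymal ones were called. Summed over each list, the level at DIV5 against DIV1 was 17.6 to 63.6 against 42.4 to 148 CPM for endothelium, 6.11 to 43.4 against 54.6 to 110 CPM for myeloid cells and 168 to 411 against 439 to 657 CPM for the oligodendrocyte lineage. It was 294 to 3095 against 2857 to 4921 CPM for mesenchyme, 3294 to 6380 against 2203 to 3229 CPM for erythroid cells and 341 to 569 against 356 to 469 CPM for epithelium and ependyma. Most of these sums are largely 1 miRNA. MiR-126a-3p made up 100% of the endothelial sum, miR-142a-5p 87.2% to 100% of the myeloid and miR-219a-2-3p 99.3% to 100% of the oligodendrocyte sum. MiR-143-3p made up 56.7% to 94.6% of the mesenchyme and miR-34c-5p 87.5% to 96.2% of the epithelial and ependymal sum. MiR-21a-5p, 54.7% to 83.2% of the glial sum, was not called in either comparison. The joined entry of miR-486b-5p and miR-486a-5p made up 97.5% to 99.9% of the erythroid sum. The erythroid entries that fell were miR-451a, by -1.90 with GDNF and -2.10 without it, and miR-144-5p, by -3.20 and -2.28 on the log2 scale. MiR-126a-5p and miR-219a-5p are also listed at 0 in all libraries. The part of these cells in the let-7 differences between days was not tested.

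The opposite arms, the 3p strands that are mostly degraded when the hairpin is cut, tell more about single hairpins, since several of them name 1 hairpin. They were rare beside the 5p arms, with a summed level of 509 to 832 CPM at DIV5 with GDNF, 594 to 858 CPM at DIV5 without it, 303 to 600.5 CPM at DIV1 with GDNF and 313 to 606 CPM at DIV1 without it. Of 11 entries 10 were tested, and in each day comparison 5 rose and 1 fell at DIV5. Both hairpins of let-7c have their own 3p arm, printed here because the mature 5p arm does not tell them apart, with bases 2 to 8 in capitals.
let-7c-1-3p: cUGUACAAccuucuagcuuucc
let-7c-2-3p: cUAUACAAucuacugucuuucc
The 3p arm of let-7c-2 is identical to that of let-7a-1, so the table gives both in 1 joined entry. Let-7c-1-3p fell, to 28.6 ± 6.72 CPM at DIV5 against 58.3 ± 19.7 CPM at DIV1 with GDNF, and to 26.0 ± 6.11 against 59.6 ± 8.12 CPM without GDNF (SD, n = 5 each). The ranges did not overlap, at 20.6 to 38.5 CPM against 39.0 to 86.6 CPM with GDNF and 19.7 to 34.7 CPM against 49.9 to 68.7 CPM without GDNF. Its log2 fold change was -1.05 (edgeR adjusted p = 0.000548) with GDNF and -1.20 (edgeR adjusted p = 0.000133) without GDNF. The joined entry of let-7c-2-3p and let-7a-1-3p had 65.6 ± 15.6 CPM at DIV5 against 47.5 ± 16.05 CPM at DIV1 with GDNF and 70.8 ± 8.53 against 41.4 ± 11.4 CPM without GDNF, with log2 fold changes of 0.47 (edgeR adjusted p = 0.111) with GDNF and 0.78 (edgeR adjusted p = 0.00999) without GDNF. The mature let-7c, to which let-7c-1 and let-7c-2 both contribute, had log2 fold changes of -0.02 with GDNF and 0.09 without GDNF.

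Let-7b-3p, from the same transcript as let-7c-2, rose to 21.8 ± 10.1 CPM at DIV5 against 6.87 ± 3.83 CPM at DIV1 with GDNF and to 22.0 ± 1.46 against 8.63 ± 7.57 CPM without GDNF. Its log2 fold change was 1.58 (edgeR adjusted p = 0.00619) with GDNF and 1.48 (edgeR adjusted p = 0.00864) without GDNF, beside 0.71 with GDNF and 1.57 without GDNF for let-7b-5p. Let-7d-3p was the most abundant opposite arm and rose to 400.5 ± 94.7 CPM against 243 ± 99.9 CPM with GDNF and to 425 ± 95.4 against 242 ± 70.4 CPM without GDNF, with an edgeR adjusted p of 0.0221 with GDNF and 0.00925 without GDNF. Let-7i-3p rose by 1.63 on the log2 scale without GDNF (edgeR adjusted p = 0.00334) and had 0.96 with GDNF (edgeR adjusted p = 0.064), where let-7i-5p had 0.06 without GDNF and 0.11 with GDNF. At DIV1 let-7i-3p averaged only 4.70 ± 1.64 CPM with GDNF and 3.91 ± 2.29 CPM without it, with as few as 2 reads in a library. Let-7b-3p had as few as 1 read in a library, so the fold changes of both rest on few reads at DIV1. From the Huwe1 intron, let-7f-2-3p and miR-98-3p rose with GDNF, by 0.64 (edgeR adjusted p = 0.0111) and 0.72 (edgeR adjusted p = 0.0223), and had 0.19 and 0.40 without GDNF, which were not called. Let-7f-1-3p was called in both comparisons, but it had 0 reads in 3 DIV1 control libraries and its fitted fold change there rests on few reads. Let-7e-3p had -0.30 with GDNF and -0.13 without GDNF, let-7g-3p had 0.62 and 0.37, and neither was called. Whether the 2 arms of a hairpin differed in their change was not tested.

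**Figure D5:**
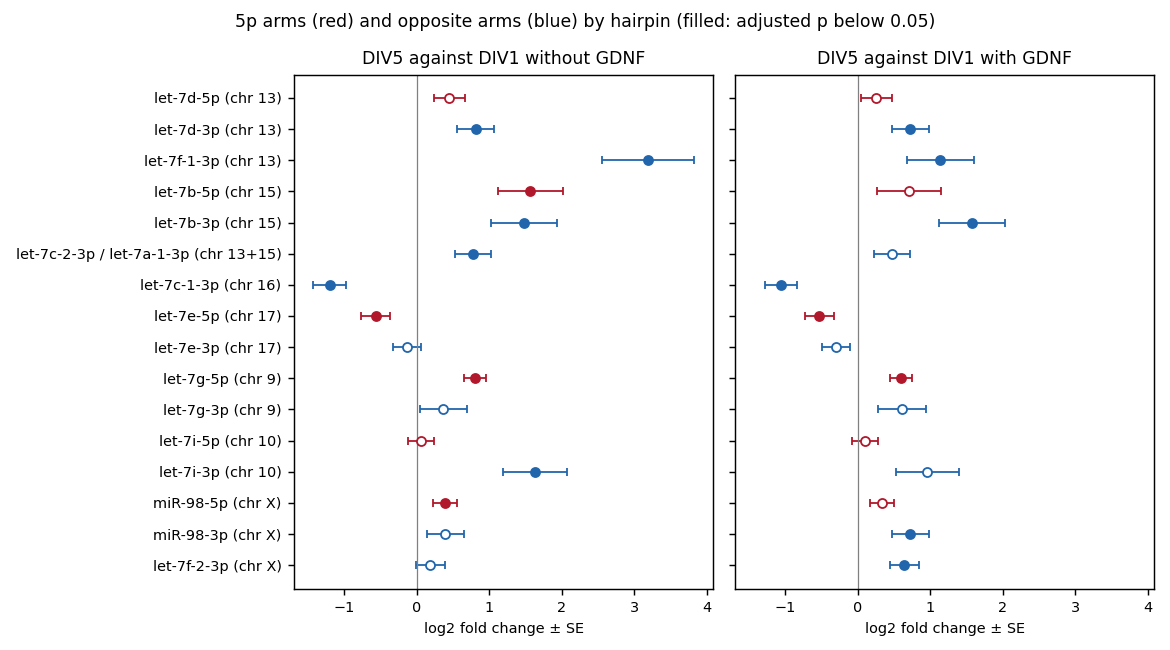
Log2 fold change with its SE (edgeR) of 5p arms in red and opposite arms in blue for DIV5 against DIV1 without and with GDNF, ordered by the chromosome of the hairpin, where filled points have an adjusted p below 0.05. Let-7c-1-3p lies at -1.20 and -1.05, whereas the joined entry of let-7c-2-3p and let-7a-1-3p lies at 0.78 and 0.47.

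Of the miRNAs made from the same transcripts, miR-125b-5p, which comes from the transcript of let-7a-2 and from a second hairpin elsewhere, rose at DIV5 by 0.84 (edgeR adjusted p = 0.00148) with GDNF and 0.66 (edgeR adjusted p = 0.00696) without GDNF. MiR-125a-5p, the neighbour of let-7e, rose without GDNF by 0.38 (edgeR adjusted p = 0.0251) and had 0.32 (edgeR adjusted p = 0.0637) with GDNF. The ratio of let-7e-5p to miR-125a-5p within a library was 0.147 ± 0.0424 at DIV5 with GDNF, 0.158 ± 0.0177 at DIV5 without it, 0.276 ± 0.0769 at DIV1 with GDNF and 0.309 ± 0.0752 at DIV1 without it (SD, n = 5 each). MiR-99b-5p, which lies in the same cluster, had 0.07 with GDNF and -0.35 without GDNF. MiR-99a-5p had 0.26 and 0.21 and miR-100-5p had -0.21 and -0.60, and none of these was called. For GDNF against control, 0 of these 5 were called at either day.

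For GDNF against control, which was the question of the series, no member was called at either day. At DIV5, 0 of 9 members were called, 0 of 9 had an unadjusted p under 0.05, and 0 of 9 were called by DESeq2 or by limma voom. Of all tested miRNAs, 0.185% were called there. The log2 fold changes of 8 of the 9 members were negative and ranged from -0.85 to 0.01, with a median of -0.11 beside 0.00 over all tested miRNAs. Matched by replicate number, the ratio of the summed level in the GDNF library to that in the control library was 0.964, 0.846, 0.991, 0.922 and 0.902, below 1 in all 5 pairs. At DIV1, 0 of 9 members were called, 0 of 9 had an unadjusted p under 0.05 and 0 of 9 were called by DESeq2 or by limma voom, where 0% of all tested miRNAs were called. The log2 fold changes there were also negative for 8 of the 9 members. They ranged from -0.14 to 0.01 with a median of -0.05 beside 0.03 over all tested miRNAs. Members were mostly high or low together in single libraries, so these signs are not 9 separate observations at either day. For replicate numbers 1 to 5, which were not taken to pair the libraries at DIV1, the ratio of the summed level was 1.04, 1.01, 1.11, 0.961 and 0.818. The p-values do not show that GDNF leaves the members as they are: the SE of a member was between 0.15 and 0.44 on the log2 scale.

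Let-7b had the largest difference of any member with GDNF at DIV5. It had 756, 1417, 789, 724 and 753 CPM in GDNF libraries 1 to 5, against 2742, 1822, 902, 855 and 1666 CPM in control libraries. Each GDNF library lay below the control library of the same number, with ratios of 0.276, 0.778, 0.875, 0.847 and 0.452, but the groups overlapped. Across the family, 0 of 9 members had groups that did not overlap, where 0.923% of all tested miRNAs were separated in the higher direction and 0% in the lower. The log2 fold change was -0.85 (SE 0.43, edgeR adjusted p = 0.347). With the replicate number as a block it was -0.75 with an adjusted p of 0.11. The largest differences were those of pairs 1 and 5, whose control libraries stood apart in many miRNAs. Without these control libraries the value was -0.43, and with the block added -0.29. Within DIV5 libraries 1 and 2 it was -1.17, and within libraries 3 to 5 it was -0.57. Let-7b-3p, the opposite arm, had 21.8 ± 10.1 CPM with GDNF and 22.0 ± 1.46 CPM without it at DIV5, a log2 fold change of 0.01 (SE 0.37). Let-7g had -0.23 (SE 0.15, adjusted p = 0.528), and was lower with GDNF in 4 of 5 pairs. The difference between the GDNF effects at DIV5 and DIV1 was called for 0 of 9 members, with 0 of 9 at an unadjusted p under 0.05, where 0% of all tested miRNAs were called. It was -0.86 (SE 0.62, edgeR adjusted p = 0.781) for let-7b.

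Other miRNAs with a let-7 name or seed added little. Among the 1679 mature names in the RefSeq sequences used here, 11 have bases 2 to 8 identical to those of let-7a, the 9 members and let-7k and miR-1961. Entries of the count tables without such a sequence were not screened. Let-7k had reads in 1 library and miR-1961 in none, and miR-202-3p, whose bases 2 to 8 are not the same, was also at 0 in all libraries. Let-7j, whose bases 2 to 8 also differ from those of let-7a, averaged 9.58 ± 2.4 CPM at DIV5 with GDNF, 8.51 ± 1.65 CPM at DIV5 without it, 7.66 ± 3.52 CPM at DIV1 with GDNF and 10.3 ± 4.20 CPM at DIV1 without it (SD, n = 5 each).

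The miRNAs whose levels followed the summed let-7 level most closely were miR-139-5p, miR-187-3p, miR-3099-3p, miR-331-5p and miR-181a-5p. The measure was the root mean square difference between centred log2 levels over the 20 libraries, which was 0.26, 0.27, 0.27, 0.29 and 0.29 for these, among 430 candidates with a median of 0.63. The summed level itself had a root mean square of 0.35 about its own mean, so these differences are not much smaller than its variation. All values in a library share its depth and scaling.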

How the data were processed

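Small RNA was sequenced in 20 libraries of cultured mouse midbrain neurons, and the deposited tables, 1 per library, hold the raw read count of each mature miRNA, not normalized. Per the submitters' processing notes, the authors' tools were HTSeq, cutadapt 1.8.1 and STAR 2.4.1d, with genome build mm10. The HTSeq version and the miRNA annotation are not given in the sources used here. Members of the let-7 family differ from each other by as little as 1 base, so reads with an error or a trimmed end can be counted for a neighbour. How the authors assigned such reads, and reads that match several hairpins, is not given in the sources used here. Each table holds 1886 mature entries, of which 12 carry joined names, and 5 lines of tallies. Reads assigned to no feature, which made up 9.51% to 22.6% of all reads in a table, were kept out of library totals and tests.

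The counts were fitted in R 4.3.3 with edgeR 4.0.16 (filterByExpr, TMM scaling factors, glmQLFit with robust estimation and glmQLFTest, 1 coefficient per group over all 20 libraries). A miRNA was called at a two-sided Benjamini-Hochberg adjusted p below 0.05 over the 542 miRNAs tested, which held at least 99.9% of the counts of each library. Levels are TMM-scaled CPM, and log2 levels use a pseudocount of 0.5. Each SE was obtained from the F statistic, whose square root is the ratio of the log2 fold change to its SE. The summed level of the 9 members is described without a p. The fit was tested on simulated data. Alternatives were other scalings and filters, DESeq2 1.42.0, limma 3.58.1 voom, a replicate block and left-out libraries.

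The members, the lists of related and marker miRNAs and the tests were chosen with earlier results of these data known. All 9 members are named. The other miRNAs named are those on lists of opposite arms, other miRNAs with the let-7 seed or name, arms made from the same transcripts and cell type markers, and the 5 miRNAs with a mean of at least 10 CPM whose levels differed least from the summed level. The labels give the same replicate numbers 1 to 5 to each group. At DIV5 the deviations of GDNF and control libraries with the same number correlated in every pair (Pearson r across miRNAs 0.208 to 0.514). Each DIV5 GDNF library correlated best with the control library of its own number, in places by a slight margin. For number 1 it was 0.2078 against 0.2061 with the best other number, for number 5 0.26239 against 0.26230. For number 3 it was 0.248 against 0.218. The numbers were taken to pair the libraries there, which the labels do not state. At DIV1 (0.00624 to 0.474) and between days the correlation did not exceed 0.1 in every pair. Sequences are RefSeq mature miRNAs with build GRCm38.p6, and gene annotation is GENCODE vM21 on the same assembly, which is also called mm10. Total counts per library were 420118 to 4324505. Reads carry no molecular identifiers, so limits from counting cover counting error only.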

Additional observations from a re-analysis of the deposited data

Results flagged for a closer look

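Of 40 groups of 5 libraries examined (the 9 members and their sum in each group), 2 held a library far from the others by Dixon's criterion, and chance gives about 1 in 20. Let-7b-5p was 1417 CPM in DIV5 GDNF library 2, where the other 4 libraries of that group had 724 to 789 CPM. The summed level of the family was 31561 CPM in DIV1 GDNF library 1, where the other libraries of that group had 51063 to 58570 CPM. DIV1 control library 1 was also the lowest of its group.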

How the results depend on the processing

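Each comparison was recomputed under other settings. Let-7g kept its call between days in 24 of 24 alternatives both with GDNF (log2 fold change 0.55 to 0.87) and without GDNF (0.66 to 1.07), let-7b without GDNF in 22 of 24 (1.07 to 2.17), let-7e in 13 of 24 with GDNF (-0.80 to -0.17) and 15 of 24 without GDNF (-0.85 to -0.17), and miR-98 without GDNF in 14 of 24 (0.25 to 0.63). No member was called in either GDNF comparison or in the difference between them under any alternative run. The summed level moved by less than its SD within groups, 0.37 on the log2 scale, in every alternative run. That SD exceeds the TMM-scaled log2 ratios of the group means themselves, so the sign could still change. Under the settings that kept all libraries or left out DIV5 control libraries 1 and 5, DIV5 against DIV1 without GDNF reached 0.44, above that SD. Leaving out 1 library in turn gave ratios of -0.24 to 0.042 for GDNF at DIV5 and -0.18 to 0.095 for GDNF at DIV1. For DIV5 against DIV1 they were 0.069 to 0.39 without GDNF and 0.045 to 0.25 with GDNF. Scaling by library totals alone moved the median log2 fold change of all miRNAs between days to 0.36 without GDNF and 0.15 with GDNF, beside 0.10 and 0.00 with TMM, and let-7e was then not called in either comparison (-0.33 without GDNF and -0.39 with GDNF). The cause of these changes was not tested.

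With the replicate number as a block, the 2 members called between days with GDNF were let-7e and let-7g and the 4 without GDNF were let-7b, let-7e, let-7g and miR-98, as without the block, and 0 were called for GDNF against control at DIV5, DIV1 or in the difference between them, so the block changed no call of a member. At DIV1, 3 of 5 numbers correlated best with their own, which is a hint from the data and not from the design. The number of members called between days with GDNF was 1 with upper-quartile scaling, 5 with no filter on low counts, 4 with only the groups compared in the fit and 4 without DIV5 control libraries 1 and 5, against 2. Leaving out 1 library in turn gave 1 to 2 with GDNF, where leaving out DIV1 GDNF library 2, 3 or 5 gave 1, and 2 to 6 without GDNF, where leaving out DIV1 control library 4 gave 2. Without GDNF it was 2 with DIV5 libraries 3 to 5 alone. The alternatives that split DIV5 for the day comparisons, and the one without DIV1 libraries 1 and 5, were chosen after seeing the data.

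Members near 0 that were not called changed sign as follows, in log2 fold change. For DIV5 against DIV1 with GDNF, let-7c was 0.0016 with DESeq2, 0.0016 with RLE factors, 0.025 with upper-quartile factors, 0.12 with library totals, 0.012 without miR-6239, 0.23 with no filter, 0.000396 with a mean of at least 10 CPM, 0.034 with only the groups compared, 0.00071 with the replicate block, 0.016 without DIV5 control libraries 1 and 5 and 0.40 with DIV5 libraries 1 and 2, and let-7i was -0.086 with DIV5 libraries 3 to 5. Without GDNF, let-7c was -0.26 and let-7i -0.14 with DIV5 libraries 3 to 5, and let-7i was -0.00189 with upper-quartile factors. For GDNF at DIV5, let-7i was -0.0046 with DESeq2 and RLE factors, -0.078 with library totals, -0.00224 with the replicate block, -0.038 without DIV5 control libraries 1 and 5, -0.032 with DIV5 libraries 1 and 2 and -0.0052 with libraries 3 to 5, where let-7a was 0.0078 and miR-98 0.014. For GDNF at DIV1, let-7b was -0.012 with DESeq2, -0.014 with RLE factors, -0.021 with upper-quartile factors, -0.00626 without miR-6239, -0.027 with no filter and -0.011 with only the groups compared. There, voom gave 0.039 for let-7c, 0.00504 for let-7d and 0.021 for let-7g, the mean of at least 10 CPM gave 0.0044 for let-7c, the replicate block gave 0.018 for let-7c and 0.000202 for let-7g, and leaving out DIV1 libraries 1 and 5 gave 0.042 for let-7c, 0.046 for let-7g and 0.0021 for miR-98. The difference of the GDNF effects was -0.055 for let-7i with library totals.

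Leaving out 1 library in turn gave these ranges. For GDNF at DIV1 they were -0.18 to 0.057 for let-7a, -0.30 to 0.40 for let-7b, -0.18 to 0.17 for let-7c, -0.19 to 0.097 for let-7d, -0.14 to 0.089 for let-7g, -0.14 to 0.066 for let-7i and -0.18 to 0.061 for miR-98. For GDNF at DIV5 they were -0.17 to 0.0101 for let-7a, -0.24 to 0.075 for let-7c, -0.27 to 0.055 for let-7e, -0.26 to 0.0796 for let-7f and -0.14 to 0.14 for let-7i. For DIV5 against DIV1 they were -0.14 to 0.14 for let-7c and -0.019 to 0.24 for let-7i with GDNF, and -0.073 to 0.31 for let-7c and -0.037 to 0.20 for let-7i without GDNF. For the difference of the GDNF effects they were -0.083 to 0.19 for let-7i.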
